A study of Mus musculus with 12 samples.

Results

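Immediate early genes are switched on within minutes of a stimulus without the need for new protein, and their RNAs are short-lived. The 10 genes described here are Fos, Fosb, Jun, Junb, Egr1, Dusp1, Atf3, Ier2, Btg2 and Zfp36. They were taken by symbol, and all 10 had 1 probe set each among the 23185 probe sets that carry 1 gene symbol. FOS and JUN proteins pair as the transcription factor AP-1, and ATF3 and EGR1 are further transcription factors that respond to stress and growth signals. DUSP1 removes phosphate from MAP kinases, ZFP36 (tristetraprolin) destabilises mRNAs of inflammatory genes, and BTG2 restrains proliferation. In fat, this class of genes responds to hormones, inflammation, stress and tissue handling.

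RNA was measured on 12 arrays of abdominal fat. The mice were BKS.Cg-Dock7m +/+ Leprdb/J, aged 12 weeks, a model of obesity and diabetes in which the leptin receptor does not signal. All mice carried adenovirus coding for short hairpin RNA (shRNA), and fat was frozen 1 week after the injection. The control dose was 4e9 plaque-forming units of a virus with a control shRNA. The LCN13 group received 2e9 of LCN13 shRNA virus plus 2e9 of control virus, the TSC22D4 group 2e9 of TSC22D4 shRNA virus plus 2e9 of control virus, and the combined group 2e9 of each gene-directed virus with no control virus. Thus the amount of control virus also differed in each comparison with control and between the combined group and either single-virus group. It differed as well between the arrays with and without the TSC22D4 virus, and with and without the LCN13 virus. In all of these, the gain of a gene-directed virus and the loss of control virus cannot be told apart. Only the LCN13 and TSC22D4 groups received the same amount of control virus. The arrays cover 3 of the 7 animals treated in each group, picked as representative per the labels and not at random. There was no group without virus, and which tissue took up the virus is not stated in the labels.

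Values are log2 levels made by the authors with RMA. Over all probe sets their median was 6.31, and levels of different genes cannot be set against each other because their probes differ. All 9 measured adipocyte markers, from Adipoq and Plin1 to Fabp4, lay far above that median. The targeted gene Tsc22d4 lay between 7.56 and 7.88 log2 and differed by -0.0074 with TSC22D4 shRNA (adjusted p = 0.989). Lcn13, listed as Obp2a, lay between 5.71 and 5.79, too dim to check the LCN13 virus. Differences below are log2 differences from limma with a 95% interval, and a gene was called at a Benjamini-Hochberg adjusted p under 0.05 over all 23185 genes.

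None of the 10 genes was called by limma in any of the 9 comparisons or in the F test over the 4 groups. Between TSC22D4 shRNA and control limma called 0 of the 10, against 1.17% of all genes, and 2 had an unadjusted p under 0.05, against 11.8% of all genes. Between LCN13 shRNA and control it called 0, against 1.44% of all genes, with 4 at an unadjusted p under 0.05, against 12.6%. Between the combined group and control it called 0, against 1.34%, with 3 at an unadjusted p under 0.05, against 11% of all genes. The F test called 0 as well, against 1.61%, with 3 at an unadjusted p under 0.05, against 16.1%. The 3 comparisons with control share the control arrays, so their results are not independent of each other. The members' median log2 difference was -0.11 with TSC22D4 shRNA, -0.21 with LCN13 shRNA and -0.18 with both, where the median of all genes lay between -0.0022 and 0.0040. Lower values than in control were found for 7, 7 and 8 of the 10, against 52.4%, 45.9% and 48.3% of all genes.

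**Figure D1:**
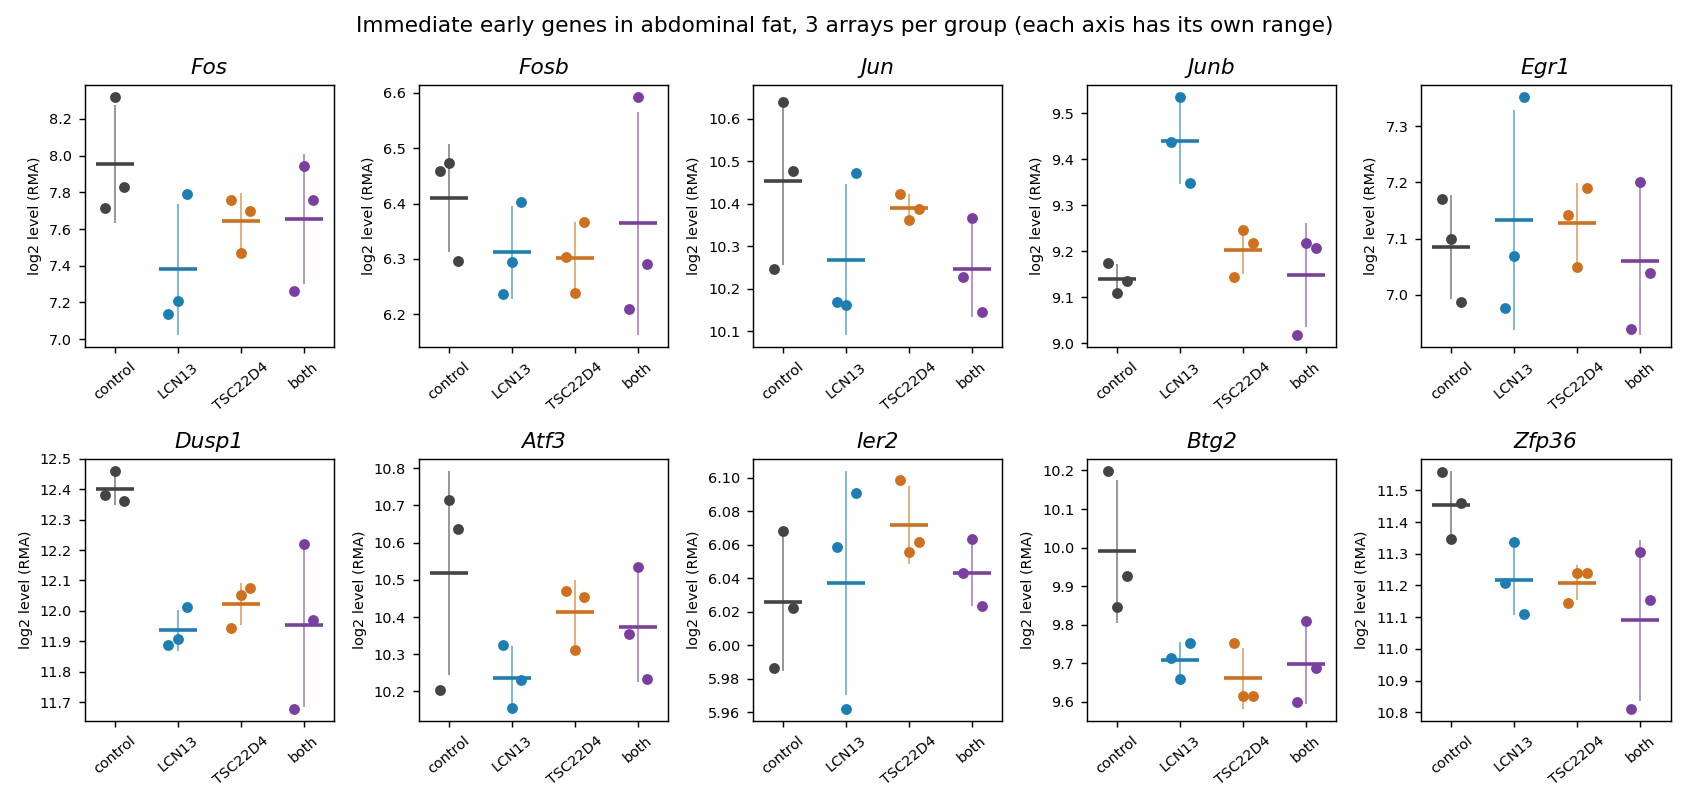
Log2 level (RMA) of each gene on each array, by group, with 3 arrays per group; thick bars are group means and thin bars are 1 SD, and each panel has its own axis range. All 3 control arrays lie above the other 9 for Dusp1, Btg2 and Zfp36, and all 3 LCN13 arrays lie above the other 9 for Junb.

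Dusp1, Btg2 and Zfp36 had their highest levels in the control group. Their control arrays did not overlap with any of the 9 arrays of the other groups. Such a pattern was found for 3 of the 10 genes, against 1.8% of all genes, but none of the 3 differences from control was called. Since their controls lay above all other arrays, these 3 genes also lay lower without overlap in each comparison with control, which adds no separate result. No other member did so. The share of all genes with lower arrays and no overlap was 8.38% with TSC22D4 shRNA, 6.93% with LCN13 shRNA and 7.22% with both. The summed level of 19 interferon-stimulated genes was likewise highest on the controls, at 15.15 to 15.46 log2 against 12.97 to 13.39 on the other 9 arrays, and its part in this pattern was not tested.

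Dusp1 codes for the MAP kinase phosphatase that is induced by the kinases it switches off, and by glucocorticoids. Its levels were 12.38, 12.46 and 12.36 log2 on the control arrays, 11.89, 11.91 and 12.01 with LCN13 shRNA, 11.94, 12.05 and 12.07 with TSC22D4 shRNA, and 11.68, 12.22 and 11.97 in the combined group. The lowest control array was 0.14 log2 above the highest of the other 9, and the spread was widest in the combined group (SD 0.27, against 0.05 to 0.07 in the other groups, n = 3 each). The difference from control was -0.47 with LCN13 shRNA (SE 0.11, interval -0.72 to -0.22, adjusted p = 0.0954), a change of -27.6% on the linear scale. It was -0.38 with TSC22D4 shRNA (SE 0.11, interval -0.63 to -0.13, adjusted p = 0.189) and -0.45 with both (SE 0.11, interval -0.70 to -0.20, adjusted p = 0.112). The LCN13 difference passed the threshold under some other settings and not under others. The adjusted p was 0.0435 with array weights, 0.0425 with an intensity trend, 0.0329 when only the 6 arrays compared were fitted, 0.0432 when dim probe sets were left out, 0.0159 without combined-group replicate 13 and 0.0255 without combined-group replicate 14. Without combined-group replicate 13 the TSC22D4 difference was also called (adjusted p = 0.0466). Combined-group arrays do not enter the LCN13 or TSC22D4 difference from control. Leaving 1 of them out kept those differences and changed only the estimated spread and what follows from it. Without combined-group replicate 14 the combined difference was -0.58 (adjusted p = 0.0190). Over all fits without 1 array the adjusted p ran from 0.0159 to 0.253 for LCN13, from 0.0466 to 0.431 for TSC22D4 and from 0.0190 to 0.266 for both. The combined difference was -0.31 without replicate 13 (adjusted p = 0.182).

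Btg2, of the BTG and TOB family that slows cell division and speeds mRNA decay, showed a narrower gap. It stood at 10.20, 9.85 and 9.93 log2 in the controls, 9.71, 9.66 and 9.75 with LCN13 shRNA, 9.75, 9.62 and 9.62 with TSC22D4 shRNA, and 9.60, 9.81 and 9.69 with both. Control replicate 1 was the highest array and the other 2 controls lay close above the combined-group maximum, with a gap of 0.04 log2. The differences from control were alike in size, -0.28 with LCN13 shRNA (SE 0.09, adjusted p = 0.205), -0.33 with TSC22D4 shRNA (adjusted p = 0.148) and -0.29 with both (adjusted p = 0.208). Their intervals ran from -0.48 to -0.08, from -0.53 to -0.13 and from -0.49 to -0.09. Without control replicate 1, the highest array, the LCN13 difference was -0.18 (adjusted p = 0.253) and the combined one -0.19 (adjusted p = 0.279).

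Zfp36 completed this set with the narrowest separation. Its levels were 11.56, 11.35 and 11.46 log2 in the controls, 11.21, 11.34 and 11.11 with LCN13 shRNA, 11.14, 11.24 and 11.24 with TSC22D4 shRNA, and 10.81, 11.31 and 11.15 with both. Control replicate 2 was 0.0098 log2 above LCN13 replicate 6, so that this separation rests on a gap far smaller than the spread within any group. The difference was -0.24 with LCN13 shRNA (adjusted p = 0.446), -0.25 with TSC22D4 shRNA (adjusted p = 0.453) and -0.36 with both (SE 0.12, interval -0.62 to -0.11, adjusted p = 0.228). Without combined-group replicate 13 the last difference was -0.22 (adjusted p = 0.465).

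Because these 3 genes were high on the same arrays, the sequence before their transcription starts is shown, with those of Junb and Fos for contrast. The RefSeq promoter table of the mouse assembly GRCm38.p6 held 8 of the 10 genes, and the 250 bases before the start are printed for 5 of them, 5′ to 3′ on the gene's strand. Capitals mark the cAMP response element TGACGTCA or its half-site TGACG on either strand, the TATA box TATAAA, and the CArG box that serum response factor binds. Dusp1 lies on the minus strand at chr17:26508473-26508722, Btg2 on the minus strand at chr1:134079156-134079405 and Zfp36 on the minus strand at chr7:28379229-28379478. Junb is on the minus strand at chr8:84978749-84978998 and Fos on the plus strand at chr12:85473640-85473889.
Dusp1: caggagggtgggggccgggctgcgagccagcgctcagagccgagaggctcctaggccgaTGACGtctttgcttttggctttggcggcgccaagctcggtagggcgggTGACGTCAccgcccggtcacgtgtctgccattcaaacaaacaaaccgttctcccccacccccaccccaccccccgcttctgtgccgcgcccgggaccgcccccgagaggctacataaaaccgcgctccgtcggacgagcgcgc
Btg2: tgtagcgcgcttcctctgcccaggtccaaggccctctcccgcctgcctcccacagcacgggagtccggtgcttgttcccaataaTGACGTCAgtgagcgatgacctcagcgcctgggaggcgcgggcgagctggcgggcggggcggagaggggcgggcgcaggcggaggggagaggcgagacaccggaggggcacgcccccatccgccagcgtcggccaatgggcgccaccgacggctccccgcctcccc
Zfp36: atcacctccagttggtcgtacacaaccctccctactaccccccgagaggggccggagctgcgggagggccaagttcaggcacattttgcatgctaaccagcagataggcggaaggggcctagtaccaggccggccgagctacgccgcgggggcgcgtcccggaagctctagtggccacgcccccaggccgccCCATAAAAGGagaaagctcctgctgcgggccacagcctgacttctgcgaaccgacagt
Junb: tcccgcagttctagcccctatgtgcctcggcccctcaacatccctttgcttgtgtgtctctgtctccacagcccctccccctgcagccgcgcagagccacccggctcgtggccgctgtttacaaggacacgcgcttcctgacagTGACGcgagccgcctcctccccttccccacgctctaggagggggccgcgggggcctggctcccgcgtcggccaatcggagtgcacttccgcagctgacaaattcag
Fos: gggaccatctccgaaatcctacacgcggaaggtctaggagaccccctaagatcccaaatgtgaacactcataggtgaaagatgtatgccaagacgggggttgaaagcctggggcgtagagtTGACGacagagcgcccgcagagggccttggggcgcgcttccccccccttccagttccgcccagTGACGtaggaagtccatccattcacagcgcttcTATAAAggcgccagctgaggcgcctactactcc

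The full element TGACGTCA was found before Dusp1, 136 to 143 bases from the start, and before Btg2, 159 to 166 bases from the start. It occurred in 2 of the 8 promoters, against 1.62% of 27025 promoter windows of this length. The half-site TGACG, which the full element contains, was present in 6 of the 8 (Fos, Fosb, Junb, Dusp1, Atf3 and Btg2), against 17.9% of all windows. Zfp36 held a CArG box 49 to 58 bases from the start, the only one among the 8, against 1.4% of all windows. The TATA box letters were found in Fos alone of the 8, against 13% of all windows. The AP-1 site TGANTCA (6.87% of all windows) and the core of the interferon-stimulated response element (3.04%) were in none of the 8 windows. These matches describe letters in a short window and were not tested for binding. Bases farther from the start were not searched, so a gene without a match here may hold the element elsewhere.

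The AP-1 subunits did not move as a block. Fos, the best known inducible subunit, was the most variable of the 10 genes between animals of one group. Its levels were 7.72, 8.32 and 7.83 log2 in the controls, 7.14, 7.21 and 7.79 with LCN13 shRNA, 7.76, 7.47 and 7.70 with TSC22D4 shRNA, and 7.26, 7.95 and 7.76 with both. The highest and the lowest array differed by 1.18 log2 (2.27-fold), every group overlapped with every other, and the residual SD of 0.31 exceeded that of 98.4% of genes. The difference from control was -0.58 with LCN13 shRNA (SE 0.23, interval -1.10 to -0.05, adjusted p = 0.345), -0.31 with TSC22D4 shRNA (interval -0.84 to 0.21, adjusted p = 0.694) and -0.30 with both (interval -0.82 to 0.22, adjusted p = 0.776). Single arrays carried much of this. Without control replicate 2 the TSC22D4 difference was -0.13 (adjusted p = 0.901) and the combined one -0.12 (adjusted p = 0.961), and without combined-group replicate 13 the combined one was -0.10 (adjusted p = 0.991).

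Jun, the partner of Fos in AP-1, ranged over 0.49 log2. It was at 10.25, 10.64 and 10.48 in the controls, 10.17, 10.16 and 10.47 with LCN13 shRNA, 10.42, 10.36 and 10.39 with TSC22D4 shRNA, and 10.23, 10.37 and 10.14 with both. All groups overlapped with the control range, and the differences were -0.19, -0.06 and -0.21 (adjusted p from 0.551 to 0.894). Without 1 array the Jun difference with LCN13 shRNA ran from -0.29 to -0.09. Fosb, which codes for another FOS protein, stayed near the middle of the arrays' values, between 6.21 and 6.59 log2, with its maximum on combined-group replicate 14. Its differences from control were -0.10 with LCN13 shRNA, -0.11 with TSC22D4 shRNA and -0.05 with both (adjusted p from 0.751 to 0.962). Atf3, a stress-induced factor that can pair with JUN proteins, was highest on control replicates 2 and 3, at 10.71 and 10.64, but low on control replicate 1, at 10.20. It was at 10.32, 10.16 and 10.23 with LCN13 shRNA, 10.47, 10.31 and 10.46 with TSC22D4 shRNA, and 10.36, 10.53 and 10.23 with both. The LCN13 difference was -0.28 (interval -0.57 to 0.0048, adjusted p = 0.409), and the groups overlapped through that 1 control array. The difference was -0.44 without control replicate 1 (adjusted p = 0.052) and -0.18 without control replicate 2 (adjusted p = 0.748).

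Junb differed from the other AP-1 genes in direction. JUNB is a JUN protein that often opposes c-JUN in growth control. Its levels were 9.17, 9.11 and 9.13 log2 in the controls, 9.44, 9.54 and 9.35 with LCN13 shRNA, 9.14, 9.25 and 9.22 with TSC22D4 shRNA, and 9.02, 9.22 and 9.21 with both. All 3 LCN13 arrays lay above all 9 others, by at least 0.10 log2, a pattern found for 1 of the 10 genes and for 2.04% of all genes. Against control alone, Junb was the 1 member whose LCN13 arrays lay higher without overlap, against 8.75% of all genes. Junb was 0.30 higher with LCN13 shRNA than in control (SE 0.06, interval 0.16 to 0.44, adjusted p = 0.0513), the smallest adjusted p among the 10 genes in the 3 comparisons with control. It was 23.2% higher on the linear scale. The difference with TSC22D4 shRNA was 0.06 (interval -0.07 to 0.20, adjusted p = 0.781) and that with both was 0.0082 (interval -0.13 to 0.15, adjusted p = 0.994).

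With both viruses Junb stood near the control level. The combined group against the LCN13 group gave a log2 difference of -0.29 (SE 0.06, interval -0.43 to -0.15, adjusted p = 0.183). Only 2 of all genes were called in that comparison, 0.00863% of those tested, and Junb was the 1 member at an unadjusted p under 0.05, against 10.7% of all genes. TSC22D4 shRNA against LCN13 shRNA gave -0.24 (adjusted p = 0.0977). That comparison called 1.03% of all genes, and Junb was again the 1 member at an unadjusted p under 0.05, against 17.7%. The interaction, which is the TSC22D4 difference in the presence of the LCN13 virus minus that in its absence, was -0.36 (SE 0.09, interval -0.55 to -0.16, unadjusted p = 0.00243, adjusted p = 0.239). None of these passed over all genes, and the interaction called 0.397% of genes. Junb, Dusp1 and Btg2 were the 3 members at an unadjusted p under 0.05 for the interaction, against 7.08% of all genes.

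The threshold decided the Junb call. Its adjusted p for LCN13 shRNA against control was 0.0223 with array weights and 0.0416 when dim probe sets were left out. It was 0.0450 without LCN13 replicate 8 and 0.0222 without combined-group replicate 13. The last of these fits kept the difference itself and changed only the estimated spread and what follows from it. Junb was not called with an intensity trend, with only the groups compared, with cyclic loess, with a common 75th percentile or with all probe sets. No other fit without 1 array called it. Over the 12 fits without 1 array the difference ran from 0.25 to 0.35 and the adjusted p from 0.0222 to 0.17. Mesothelial markers were high on the arrays with the highest Junb. Their summed level, as log2 of the sum over 10 of 10 measured markers, was 12.28 and 12.25 on LCN13 replicates 5 and 6 against 11.22 on replicate 8, with a range of 10.91 to 11.54 in controls, 11.04 to 11.62 with TSC22D4 shRNA and 11.34 to 11.41 in the combined group. Of the defining markers, Upk3b was at 8.10 to 9.98 log2 over the 12 arrays, and Muc16 averaged 6.01, under the array median. LCN13 replicate 8, with a mesothelial level inside the control range, had Junb at 9.35, above every array of the other groups. Without replicates 5 and 6, a setting added after the data were seen, the difference was 0.21 (adjusted p = 0.474). The lone array is there assumed to vary like the other groups, and since these 2 arrays also had the highest Junb, a smaller value follows from leaving them out. Hepatocyte markers (7 of 8 measured) were also high on replicates 5 and 6, at a summed 11.45 and 11.41 log2 against 10.49 on replicate 8, 9.38 to 10.42 in controls, 9.58 to 10.06 with TSC22D4 shRNA and 9.53 to 11.72 in the combined group. T and NK cell markers (10 of 10 measured) were at 9.92 to 10.19 with LCN13 shRNA, 10.32 to 10.65 in controls, 10.32 to 10.56 with TSC22D4 shRNA and 10.10 to 10.37 with both. The part of these markers in the Junb difference was not tested. In tissue RNA of this kind a change in the number of cells of a type and a change in RNA per cell cannot be told apart.

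Egr1 and Ier2 were not called, and their differences from control were small. Egr1, a zinc finger factor downstream of ERK, was at 7.17, 7.10 and 6.99 log2 in the controls, 6.98, 7.07 and 7.35 with LCN13 shRNA, 7.14, 7.05 and 7.19 with TSC22D4 shRNA, and 6.94, 7.20 and 7.04 with both. All groups overlapped, the differences from control lay between -0.03 and 0.05, and the 3 intervals together ran from -0.25 to 0.27. Ier2, an early response nuclear protein, ranged over 0.14 log2, from 5.96 to 6.10, under the array median. Its differences from control were 0.01 with LCN13 shRNA, 0.05 with TSC22D4 shRNA and 0.02 with both, and at this signal a change in its RNA may not be detectable.

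**Figure D2:**
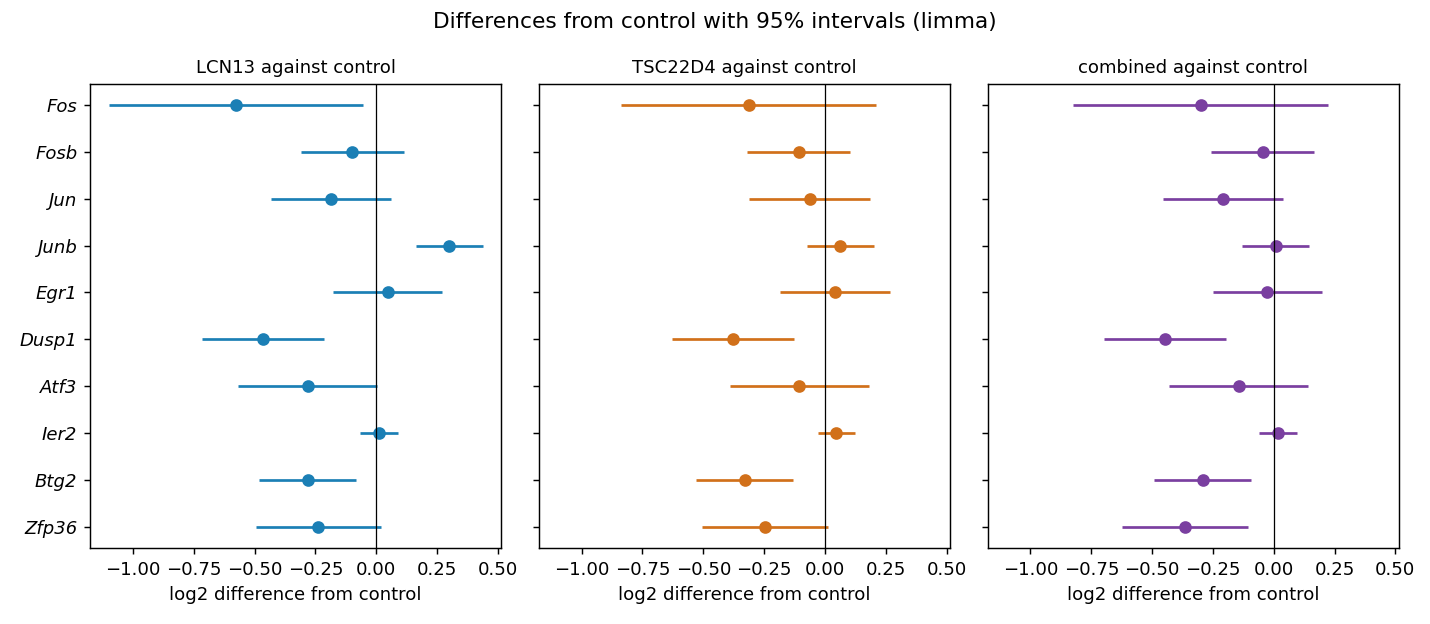
Log2 difference from control for each gene in the 3 virus groups, with points for the limma estimate and bars for the 95% interval. The intervals of Dusp1 and Btg2 lie below 0 in all 3 panels, that of Junb lies above 0 with LCN13 shRNA alone, and those of Egr1, Fosb and Ier2 span 0 throughout.

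The effects averaged over the other virus were small. With TSC22D4 virus (6 arrays against 6) the differences were -0.18 for Dusp1, -0.17 for Btg2, -0.19 for Zfp36 and -0.11 for Junb, each with an unadjusted p between 0.0227 and 0.0468 and an adjusted p of at least 0.228. These were the 4 members at an unadjusted p under 0.05, against 16.1% of all genes, and limma called 0, against 1.39%. With LCN13 virus Dusp1 was at -0.27 (interval -0.44 to -0.09, adjusted p = 0.177) and Junb at 0.12 (interval 0.03 to 0.22, adjusted p = 0.259), the 2 members at an unadjusted p under 0.05, against 13.7% of all genes, and limma called 0, against 1.08%. The interaction was 0.40 for Dusp1 (adjusted p = 0.627) and 0.32 for Btg2 (adjusted p = 0.62). For both genes the difference with both viruses lay between the differences with either virus alone. The combined group against TSC22D4 shRNA called 0 of the 10, against 0% of all genes, with 0 at an unadjusted p under 0.05, against 6.91% of all genes, and differences between -0.14 and 0.06.

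Single arrays stood out across several genes. Control replicate 2 had the highest level of 4 genes (Fos, Jun, Dusp1 and Atf3), and combined-group replicate 13 the lowest of 6 (Fosb, Junb, Egr1, Dusp1, Btg2 and Zfp36). Within the combined group, replicate 13 was the lowest array for 7 of the 10 genes, while replicate 14 had the highest Fosb of all. The mean of the 10 genes, each scaled to mean 0 and SD 1, was -1.12 on combined-group replicate 13 and 0.64 on replicate 14. LCN13 replicates 5 and 6 were at -0.46 and -0.53 and replicate 8 at 0.39, and the controls at 0.38, 0.92 and 0.35.

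**Figure D3:**
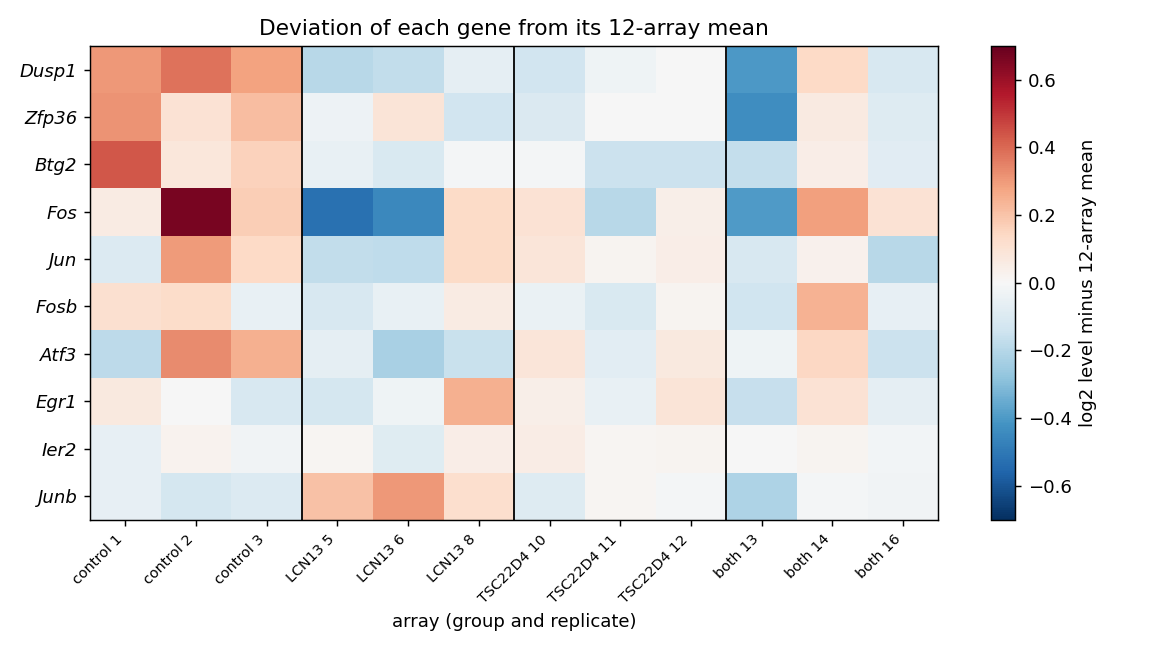
Log2 level of each gene minus its 12-array mean, for the 12 arrays in group order; red is above the mean and blue below, and black lines separate groups. Dusp1, Zfp36 and Btg2 are red on all 3 controls, Junb is red on all 3 LCN13 arrays, and combined-group replicate 13 is low for most genes.

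The genes varied together in part. Of the 45 pairs, Pearson's r over 12 arrays was above 0 for 34 and below 0 for 11, with a median of 0.34. After Benjamini-Hochberg adjustment over the 45 pairs, 5 passed in a permutation test of r (100000 permutations, two-sided), against 11 at an unadjusted p under 0.05. The 12 arrays were shuffled without regard to group, so differences between group means also enter these p-values. Dusp1 and Zfp36 had r = 0.83 (permutation p = 0.00082, adjusted p = 0.0369) and rho = 0.75 (permutation p = 0.0066, adjusted p = 0.0722). Without the 2 arrays farthest from the median of Dusp1, control replicate 2 and combined-group replicate 13, r was 0.81, with the other controls kept. Over the 9 arrays without controls it was 0.74. Those 9 hold combined-group replicate 13, the lowest array for both genes, at 11.68 for Dusp1 and 10.81 for Zfp36. Neither fit left out all controls and that array at once, so co-variation apart from them was not shown. After group means were removed r was 0.69, with that array kept.

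Dusp1 and Btg2 had r = 0.75 (permutation p = 0.00327, adjusted p = 0.0385) and rho = 0.69 (permutation p = 0.0158, adjusted p = 0.0968), but r was 0.49 without the controls and 0.29 after group means were removed. Fos and Jun had r = 0.78 (permutation p = 0.00299, adjusted p = 0.0385) and rho = 0.74 (permutation p = 0.00802, adjusted p = 0.0722), with r = 0.56 without LCN13 replicate 5 and control replicate 2 and r = 0.79 after group means were removed. Fos and Dusp1 had r = 0.77 (permutation p = 0.00342, adjusted p = 0.0385) and rho = 0.71 (permutation p = 0.0121, adjusted p = 0.0908), with r = 0.65 without the same 2 arrays and 0.71 within groups. Jun and Atf3 had r = 0.76 (permutation p = 0.00473, adjusted p = 0.0426) and rho = 0.66 (permutation p = 0.0217, adjusted p = 0.0979), with r = 0.58 without control replicate 2 and combined-group replicate 16. Fosb and Egr1 were the only pair whose rho passed, at 0.84 (permutation p = 0.00103, adjusted p = 0.0463), with r = 0.67 (permutation p = 0.0184, adjusted p = 0.092). That r was 0.80 without combined-group replicate 14 and control replicate 2. Fosb averaged 6.35 log2, close to the array median of 6.31, and ranged over 0.38 log2. Fos thus varied with Jun and Dusp1 also between animals of one group. Junb had its lowest r with Atf3, at -0.55 (permutation p = 0.0634, adjusted p = 0.22), with rho = -0.60 (permutation p = 0.0445, adjusted p = 0.136) and r = -0.42 without LCN13 replicates 5 and 6. After group means were removed this r was -0.25, and those of Junb with the other members ran from -0.63 (Ier2) to 0.92 (Zfp36).

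**Figure D4:**
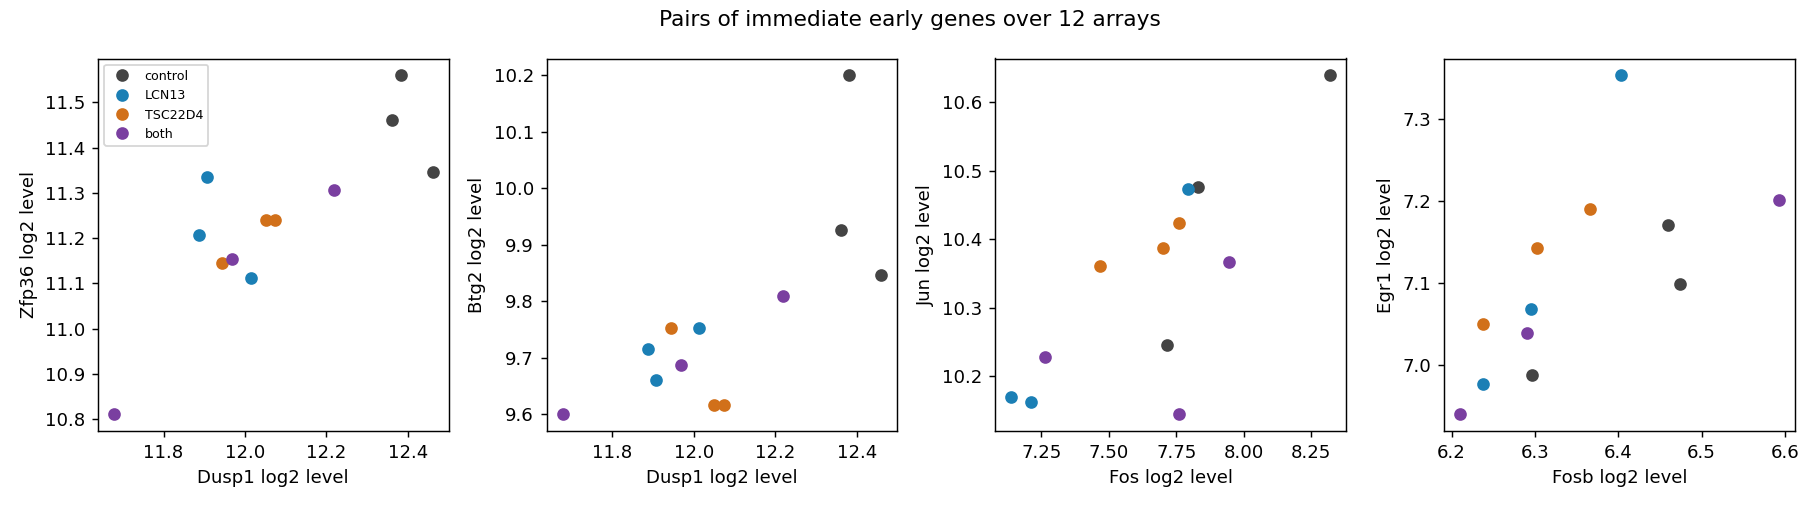
Log2 levels of 4 pairs of genes over the 12 arrays, each point 1 array, coloured by group. Dusp1 and Zfp36 (r = 0.83) had r = 0.74 among the 9 arrays without controls, where combined-group replicate 13 was the lowest array for both genes. For Dusp1 and Btg2 the 3 controls lie apart from the others.

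The mean scaled profile of the 10 genes was set against all other named genes, predicted genes and olfactory or vomeronasal receptors aside, as a description over the 12 arrays. The genes with the highest Pearson r were Yipf1 (0.88), Dusp6 (0.88), Mvb12a (0.88), Klrg1 (0.87), Fcgr3 (0.86), Capn1 (0.84), Ehd4 (0.84), Rhox9 (0.83), Zfp444 (0.83) and Il11 (0.83). Dusp6, an ERK phosphatase of the same family as Dusp1, ranged over 1.11 log2, while Klrg1, Rhox9, Zfp444 and Il11 averaged under the array median and ranged over 0.09 to 0.26 log2. The most opposite genes were Pcdhgb1 (-0.88), Drg1 (-0.86) and Pnmt (-0.86).

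Related genes were taken from lists chosen by name. Against control limma called 1.17% of all genes with TSC22D4 shRNA, 1.44% with LCN13 shRNA and 1.34% with both. The counts given first are for the 3 comparisons with control. Among 11 other AP-1 and bZIP partners Batf2 was the only one to pass, falling by 0.55 with LCN13 shRNA (adjusted p = 0.042), and the list's median was -0.08 with TSC22D4, -0.07 with LCN13 and -0.13 with both. Among 19 other immediate early response genes Nfkbiz, a regulator of NF-kappaB target genes, fell with both viruses (-0.29, SE 0.05, adjusted p = 0.0261), with list medians of -0.14, -0.13 and -0.18. The mean deviation of these 19 genes from their 12-array mean was 0.10 to 0.12 on the 3 controls and -0.13 to 0.06 on the other 9 arrays. For the 11 AP-1 partners it was 0.07 to 0.13 on the controls and -0.12 to 0.03 on the others. Neither list holds a member.

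No transcription factor of the other families passed against control. Of 12 KLF, MYC and ID genes 0 passed against control in either direction, with Klf6 at -0.25 with TSC22D4 shRNA (adjusted p = 0.0512) and Myc at -0.43 with both (adjusted p = 0.171). Of 8 EGR and NR4A genes 0 passed, with Nr4a1 at -0.18 with TSC22D4 shRNA and Nab2, a corepressor of EGR proteins, at 0.18 with LCN13 shRNA (adjusted p = 0.464 and 0.60). Of 13 ATF and CREB genes 0 passed, with Creb3l2 at 0.30 and Creb1 at 0.12 with LCN13 shRNA (adjusted p = 0.163 and 0.361). Of 6 serum response factor and ternary complex factor genes 0 passed, with Srf at -0.25 with LCN13 shRNA (adjusted p = 0.187) and Elk4 at 0.24 with TSC22D4 shRNA (adjusted p = 0.208).

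Of the relatives of Dusp1, Btg2 and Zfp36 only Dusp14 was called against control. Of 10 other MAP kinase phosphatases Dusp14 passed, rising by 0.45 with LCN13 shRNA (SE 0.08, adjusted p = 0.0298), and the list's medians were -0.03 with TSC22D4, -0.16 with LCN13 and -0.04 with both. Of 5 BTG and TOB genes 0 passed, with Btg3 at -0.22 (adjusted p = 0.521) and Btg1 at -0.02 with LCN13 shRNA. The smallest limma adjusted p of Btg1 over the 3 comparisons with control was 0.411. Of 3 ZFP36 family genes 0 passed, with Zfp36l2 higher by 0.17 to 0.19 in all 3 comparisons (adjusted p from 0.252 to 0.32) and Zfp36l1 at -0.11 with TSC22D4 shRNA. Of 11 mRNAs known as targets of ZFP36 0 passed, and the chemokine genes Ccl3 (-1.01, adjusted p = 0.076) and Ccl2 (-0.61, adjusted p = 0.244) were lowest with both viruses. Among 12 MAP kinase pathway genes Mapk14, which codes for p38 alpha, fell by 0.20 with both viruses (SE 0.04, adjusted p = 0.0278).

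The stress and hormone lists held no call against control. Of 12 glucocorticoid targets outside the members 0 passed there, with medians of -7.5e-05 with TSC22D4, 0.05 with LCN13 and -0.01 with both, and with Lcn2 at 0.93 with TSC22D4 shRNA (adjusted p = 0.234) and Sgk1 at -0.20 with LCN13 shRNA (adjusted p = 0.661). Of 10 heat shock genes 0 passed against control, with medians of 0.02 to 0.04. With TSC22D4 shRNA they ran from -0.42 for Hspa1a (adjusted p = 0.442), an inducible HSP70 gene picked after its value was seen, to 0.21 for Hsph1, with Hspd1 at 0.20.

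Outside the comparisons with control these lists held a few more calls, and the genes that follow were picked after their values were seen. Between TSC22D4 and LCN13 shRNA, Klf5 was lower by a log2 difference of -0.14 (adjusted p = 0.0381), the heat shock gene Dnajb1 at -0.36 (adjusted p = 0.0293) and Dusp14 at -0.58 (adjusted p = 0.0293). In the TSC22D4 effect averaged over LCN13, Ier3 was at -0.31 (adjusted p = 0.0482), Nfkbiz at -0.20 (adjusted p = 0.0344), Mapk14 at -0.14 (adjusted p = 0.0344) and Dnajb1 at -0.20 (adjusted p = 0.0353). In the LCN13 effect averaged over TSC22D4, Dusp14 was at 0.38 (adjusted p = 0.0155) and the cell cycle inhibitor gene Cdkn1a at -0.21 (adjusted p = 0.0489). Calls in these comparisons depended on single arrays. Between TSC22D4 and LCN13 shRNA limma called 239 of all genes. It called 2 without LCN13 replicate 5, 4 without LCN13 replicate 6, 4 to 8 without 1 TSC22D4 array and 582 without LCN13 replicate 8. Over the fits without 1 array, the averaged TSC22D4 effect called 132 to 718 genes (323 in the main fit). The averaged LCN13 effect called 135 to 389 (251 in the main fit). Which genes named here stayed called is not given.

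Interferon-stimulated genes separated the controls in the same direction as Dusp1, Btg2 and Zfp36, at far larger size. Of 19 measured, 17 passed lower with TSC22D4 shRNA, 16 with LCN13 shRNA and 17 with both, and 0 passed higher. Their medians were -1.81, -1.96 and -2.05, with Ifit1 falling by 3.00 (adjusted p = 8.17e-06) and Ddx58 falling by 1.26 with LCN13 shRNA. With the same virus Rtp4 was at -2.20 and Irf7 at -2.43. The summed level of the list was 15.15 to 15.46 log2 in controls, 13.24 to 13.39 with LCN13, 13.16 to 13.39 with TSC22D4 and 12.97 to 13.03 with both. Macrophage markers (9 of 10 measured) had summed levels of up to 15.21 in controls, 14.98 with LCN13, 15.12 with TSC22D4 and 15.02 with both, with the lowest array of the 12, in the combined group, at 14.87. The TSC22D4 and combined groups overlapped with the controls. Control replicate 1 lay below TSC22D4 replicates 10 and 12, at 15.04 and 15.12, and below the combined-group maximum. The LCN13 group did not overlap with the controls, since every LCN13 array lay below every control. The mean deviation of these markers from their 12-array mean was -0.102 to -0.055 with LCN13 and -0.010 to 0.236 in controls. Red blood cell markers (5 of 11 measured) had summed levels of 9.27 to 11.33 in controls, 9.58 to 11.60 with LCN13, 10.72 to 11.35 with TSC22D4 and 11.61 to 12.07 with both. The part of these cell type markers in the control-high pattern was not tested.

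**Figure D5:**
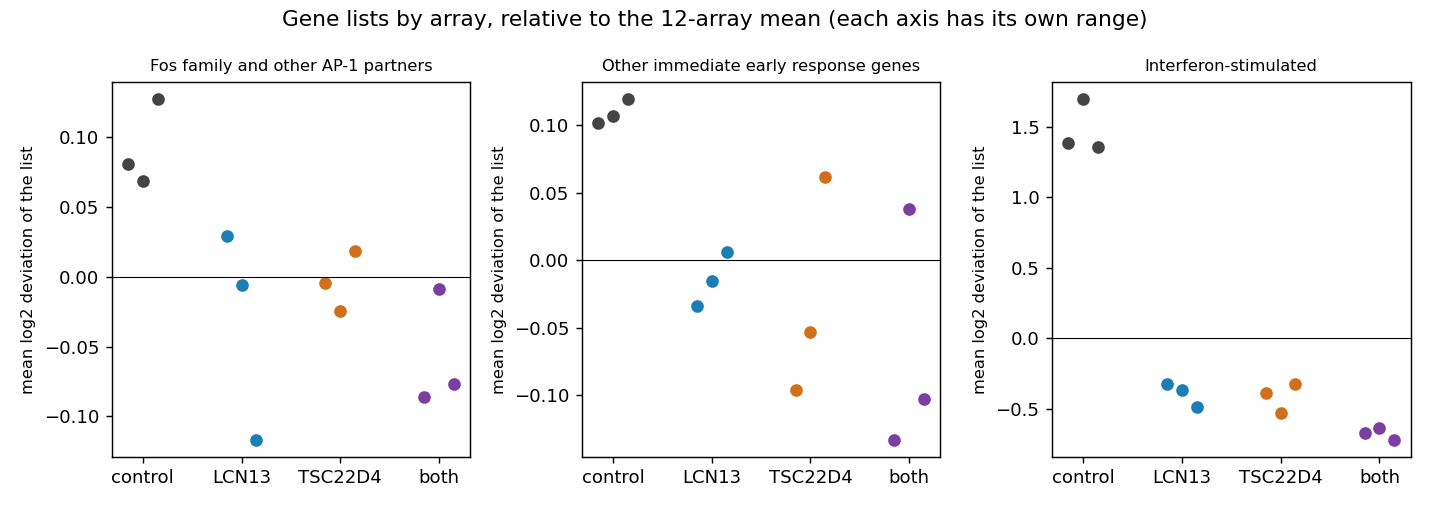
Mean log2 deviation of 3 gene lists from their 12-array mean, 1 point per array by group, each panel with its own axis range. Control arrays lie above the other 9 in all 3 lists, at 0.07 to 0.13 for the AP-1 partners, 0.10 to 0.12 for other immediate early response genes and 1.36 to 1.69 for interferon-stimulated genes. In the other lists of related genes, not shown, controls overlapped with the other arrays. The ZFP36 family, for example, was at -0.046 to -0.007 in controls and reached 0.087 with LCN13 shRNA.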

How the data were processed

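Fat RNA was measured on 12 one-colour arrays, 3 animals in each of 4 groups taken from the sample titles. The authors deposited 1 log2 value per probe set and array, made with RMA per the submitters' processing notes; its version, settings and probe set definitions were not given in the sources used here. Arrays shared 1 distribution of values, which removes changes common to most genes. Of 25206 probe sets, 23185 had 1 gene symbol, 0 several and 2021 none. limma 3.58.1 in R 4.3.3 fitted 1 mean per group over all 12 arrays (lmFit, contrasts.fit, eBayes, 8 residual and 1.38 prior degrees of freedom), two-sided, adjusted over all 23185 genes, with no filter. The fit was tested on simulated data. Correlations used Python 3.11.15. The members and lists were chosen with earlier results of these data known. All members were named; context genes were the up to 4 that passed against control, or else the 2 with the largest mean difference; the 10 most alike and 3 most opposite genes were ranked by r. Alternatives were other spreads, normalizations, filters and arrays left out. Animals were separate, and the number of arrays limits the precision.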

Additional observations from a re-analysis of the deposited data

How the results depend on the processing

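No paired analysis was possible because the groups share no replicate numbers. Of the counts of called members without 1 array, 113 stayed at 0 and 7 did not, and under the other settings 70 did and 6 did not. The number of members called for LCN13 against control was 2 with array weights, 1 with an intensity trend, 1 with only the groups compared, 2 with dim probe sets left out (Ier2 was removed there) and 0 to 2 without 1 array. With array weights 1 member was called for TSC22D4 against LCN13 and 1 in the F test. Without 1 array the count was 0 to 1 for TSC22D4 against control, combined against control, LCN13 averaged over TSC22D4 and the F test. All members that passed anywhere against control were Dusp1 (lower) or Junb (higher). The differences whose sign turned were not called under any setting tried. With array weights Egr1 was at -0.021 and Ier2 at -7.3e-05 with LCN13, and Ier2 at -0.0020 with both. Cyclic loess put Junb at -0.011 with both, and without LCN13 replicates 5 and 6 Jun was at 0.019 with LCN13. Without 1 array the values ran, with both viruses, from -0.096 to 0.034 for Egr1, from -0.16 to 0.031 for Fosb, from -0.0021 to 0.039 for Ier2 and from -0.027 to 0.073 for Junb. With LCN13 they ran from -0.063 to 0.13 for Egr1 and from -0.016 to 0.049 for Ier2, and with TSC22D4 from -0.0070 to 0.084 for Egr1 and from -0.17 to 0.029 for Jun. Over all genes, array weights called 447, 680 and 518 against control for TSC22D4, LCN13 and both, and fits of only the groups compared 142, 102 and 126, where the main counts were 272, 333 and 311. The cause of these differences was not tested.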
